A study of Homo sapiens with 8 samples.

Results

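The G1 cyclins, the kinases they activate and the inhibitors of those kinases were followed in FT293 cells, a HEK293 line from human embryonic kidney with a Flp-In T-REx site in its genome. The group holds 10 genes of the 36337 gene names on the array: the D-type cyclins CCND1, CCND2 and CCND3, the E-type cyclins CCNE1 and CCNE2, the kinases CDK2, CDK4 and CDK6, and the inhibitors CDKN1B and CDKN2C. They were chosen by gene name, and all probes with these names were used, which gave 12 of 50599 probes. FT293 cells expressed GFP alone, GFP-HuR, GFP-TIA1 or GFP-TIAR from the same genomic site under a tetracycline-inducible promoter. Total RNA was taken on day 3 of tetracycline and hybridized to one-colour arrays, with 2 arrays per line. Tetracycline and a GFP tag were thus common to all lines, and the GFP line differed by the lack of a fused RNA-binding protein. By its title, description and genotype TIA1 2 is a GFP-TIA1 sample, while its source name reads GFP-TIA2, and it was used as TIA1. Nothing in the labels says whether the arrays of a line came from separate cultures, so p-values measure the spread between arrays, which may be technical. In bulk RNA, fewer cells that express a gene and less RNA per cell cannot be told apart.

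Progression from G1 to S phase is driven by D-type cyclins with CDK4 or CDK6 and then by E-type cyclins with CDK2. These kinases phosphorylate RB and its relatives, which releases E2F factors to activate genes of DNA replication. CDKN1B (p27) binds and inhibits mainly cyclin E-CDK2, while CDKN2C (p18) binds CDK4 and CDK6. HEK293 cells carry adenoviral E1A, which binds RB proteins, so this pathway is altered in all 4 lines. HuR, TIA1 and TIAR are RNA-binding proteins with a preference for U-rich RNA; HuR is known as a stabilizer of bound mRNAs, TIA1 and TIAR as translational repressors and splicing regulators. The study followed cell cycle progression in these lines, and the comparisons ask how the RNAs of G1 regulators differed between them.

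All 12 probes were well above background on all 8 arrays, and none was lost to the filter on dim probes. Values are log2 processed signals relative to the 75th percentile of the same array, so that 0 is that percentile, and signals of different probes cannot be set against each other as amounts of RNA. A probe counted as up- or downregulated when it changed by 2-fold or more with an adjusted p under 0.05 in limma (Benjamini-Hochberg over all tested probes), and SE is the standard error of a log2 fold change. One array stood apart. On GFP 1, 86.0% of probes were well above background against 53.2% to 58.5% on the other 7 arrays, and the mean local background was 83.2 against 35.7 to 41.5 intensity units. Of probes well above background on both GFP arrays, 15.8% differed by 2-fold or more, against 0.455% in HuR, 1.13% in TIA1 and 1.45% in TIAR. Among markers of HEK293 cells, 6 of 7 were well above background on all arrays. Summed signals of 5 blood cell markers were 2.76 times the 75th percentile on GFP 1 and 0.105 to 0.189 elsewhere, and those of 5 fibroblast markers 2.72 and 0.178 to 0.950. In TIA1 and TIAR compared with HuR, the neurofilament gene NEFL, 1 of the HEK293 markers, was called down, as was NEFM in TIAR. Of 5 fibroblast markers LUM was called down in TIA1 and DCN up in TIAR, and among endothelial and blood cell markers VWF was called up in TIA1 and ITGAM in both, from summed signals of at most 0.950. DCN and LUM were called up in TIAR compared with TIA1 (log2 fold changes of 1.08 and 1.78), 2 of the 3 fibroblast markers tested. Their part in the results was not tested. Comparisons with the GFP line are given with and without GFP 1. Its part in the results is measured by these values, and the cause of its difference was not tested.

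CCND1 and CCND2 were the G1 cyclins that differed most, and both had their highest RNA levels in HuR-expressing cells. CCND1 encodes cyclin D1 and was read by 10 spots of 1 probe (NM_053056, chr11:69468233-69468292 on hg19, plus strand). Its values were 0.75 and 0.91 in HuR, -0.94 and -0.84 in GFP, -1.08 and -0.91 in TIA1, and -0.84 and -0.77 in TIAR. The HuR arrays lay above all 6 others, which ran together from -1.08 to -0.77. CCND1 was downregulated in TIA1- compared with HuR-expressing cells by a log2 fold change of -1.83 (SE 0.12, adjusted p = 0.0026), that is 3.55-fold. In TIAR- compared with HuR-expressing cells, the log2 fold change was -1.64 (SE 0.11, adjusted p = 0.0049), or 3.11-fold.

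CCND2, the gene of cyclin D2, showed the same order at the top (NM_001759, chr12:4414040-4414099, plus strand). Its values were 3.78 and 3.71 in HuR, 2.56 and 2.54 in TIA1, 2.44 and 2.63 in TIAR, and 2.07 and 2.37 in GFP. HuR again stood above all other arrays, with the TIA1 and TIAR arrays between HuR and GFP. CCND2 was downregulated by -1.20 on the log2 scale in TIA1 compared with HuR (SE 0.09, adjusted p = 0.0033) and by -1.21 in TIAR compared with HuR (SE 0.11, adjusted p = 0.0072). These comparisons share the HuR arrays and are not independent. The CCND1 call in TIAR compared with HuR was lost without HuR 2 (log2 fold change -1.56) and was made without HuR 1 (-1.71). That of CCND2 was lost without HuR 1 (-1.17) and without HuR 2 (-1.25). It was also lost with the authors' values (-0.88) and with normexp and quantile normalization together (-0.997), both under 2-fold. Without either HuR array, fewer probes of the whole array were called in this comparison, so losing a call there was not particular to CCND1 and CCND2.

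Against GFP, the HuR line had a log2 fold change of 1.72 for CCND1 (SE 0.16, adjusted p = 0.16) and 1.53 for CCND2 (SE 0.19, adjusted p = 0.17). Neither passed, as was the case for every probe on the array in this comparison, where 0 of 28871 were called by limma and 4970 had an unadjusted p under 0.05. Without GFP 1, limma called 8.47% of probes, and both genes were among them with log2 fold changes of 1.67 for CCND1 (adjusted p = 0.016) and 1.37 for CCND2 (adjusted p = 0.017). Without GFP 2, where 24.3% of probes were called, the values were 1.77 and 1.68. With the spread estimated over all 8 arrays, both genes were called as well (adjusted p = 0.0060 and 0.010), with 3.96% of all probes, but not when the 8 arrays were also weighted (adjusted p = 0.074 and 0.078). Over limma's 14 settings for this comparison, each gene was called in 3. In TIA1 compared with GFP, CCND1 had a log2 fold change of -0.11 (95% confidence interval -0.65 to 0.43) and CCND2 of 0.33 (-0.26 to 0.92). In TIAR compared with GFP, the values were 0.08 (-0.44 to 0.61) and 0.32 (-0.31 to 0.94).

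The probe stretches that read these cyclins are shown because HuR and TIA proteins are known for U-rich RNA. Each is the T-richest run of 30 bases in the 60-base probe, 5′ to 3′ in the sense of the mRNA, and capitals mark runs of at least 3 T.
CCND1 (chr11:69468250-69468279, plus strand): ttgctgTTTcacaatacctcatgcttcact
CCND2 (chr12:4414054-4414083, plus strand): TTTTTTccattatgttcatcacccttatat
The CCND2 stretch starts with 6 T and holds 16 T in all, while the CCND1 stretch holds 12. Searched on the sense strand only, TTTTT occurred in 1 of the 12 probes, that of CCND2, and in 10.6% of all 50599 probes. ATTTA, the core of AU-rich elements, occurred in 2 of the 12, those of CCND3 and of CCNE2 A_33_P3247022, and in 7.79% of all probes. The probes cover a small part of each mRNA, and a match is not a binding site.

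**Figure D1:**
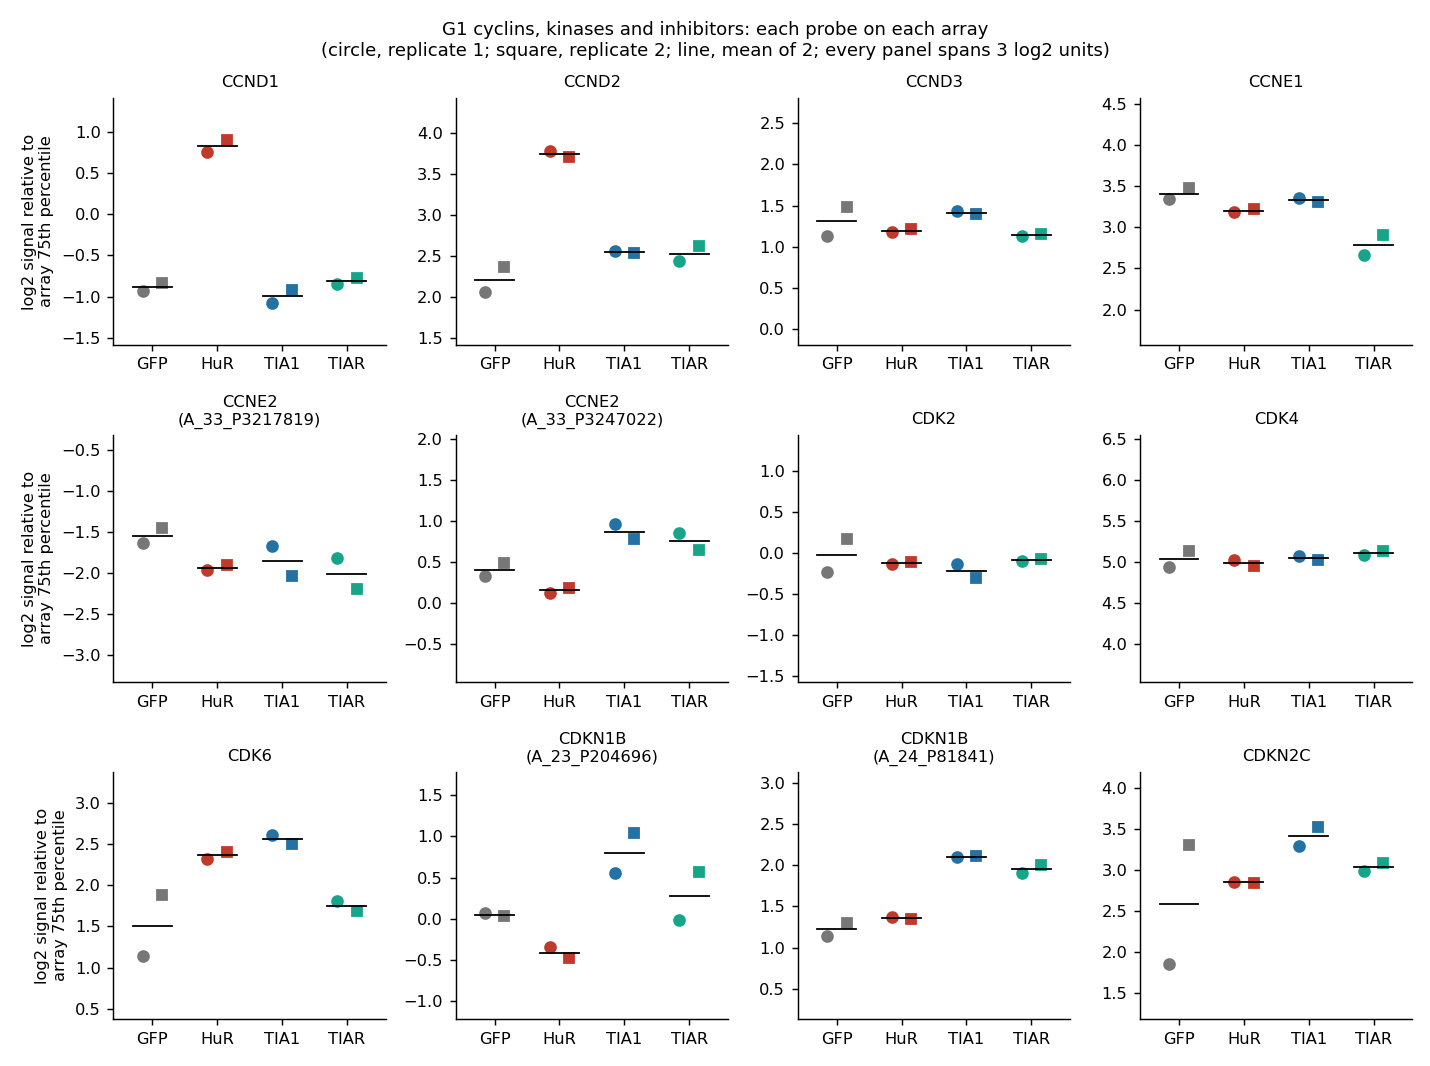
Log2 signal of the 12 probes on each of the 8 arrays, relative to the array's 75th percentile, with circles for replicate 1, squares for replicate 2 and a line at the mean of each line. HuR stands above the other lines for CCND1 and CCND2, while the TIA1 and TIAR arrays lie highest for CDKN1B A_24_P81841.

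CCND3, the third D-type cyclin, did not pass in any comparison (NM_001760, chr6:41903193-41903252, minus strand). Its values ran from 1.13 on GFP 1 and TIAR 1 to 1.49 on GFP 2, and the GFP arrays differed by nearly this whole range. The log2 fold change was 0.22 in TIA1 compared with HuR (95% confidence interval -0.02 to 0.47) and -0.05 in TIAR compared with HuR (-0.30 to 0.20). Neither interval reached a 2-fold change, unlike those of CCND1 and CCND2.

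Cyclin E1, the partner of CDK2 encoded by CCNE1, had its lowest values in TIAR-expressing cells (NM_001238, chr19:30315106-30315165, plus strand). These were 2.66 and 2.91 in TIAR, 3.19 and 3.22 in HuR, 3.35 and 3.31 in TIA1, and 3.34 and 3.48 in GFP. TIAR did not overlap with any other line. However, the log2 fold change of -0.42 in TIAR compared with HuR did not pass (SE 0.12, adjusted p = 0.069), nor did that of -0.54 in TIAR compared with TIA1 (SE 0.14, adjusted p = 0.11). In TIAR compared with GFP it was -0.63 (SE 0.21, adjusted p = 0.29). In TIAR compared with HuR the limma adjusted p was 0.015 with normexp (-0.60) and 0.17 with no filter on dim probes (-0.42). CCNE1 was called there under 0 of limma's 14 settings.

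CCNE2, the gene of cyclin E2, was read by a pair of probes on chromosome 8 with unlike point estimates compared with HuR. On A_33_P3247022, values were 0.12 and 0.18 in HuR, 0.33 and 0.48 in GFP, 0.96 and 0.78 in TIA1, and 0.86 and 0.64 in TIAR. All TIA1 and TIAR arrays were higher than the HuR and GFP arrays. The log2 fold changes compared with HuR were 0.72 in TIA1 (SE 0.11, adjusted p = 0.012) and 0.60 in TIAR (SE 0.12, adjusted p = 0.029), under the 2-fold threshold. The dimmer probe, A_33_P3217819, ranged from -2.20 to -1.46 with its highest values in GFP. Its log2 fold changes compared with HuR were 0.08 in TIA1 (95% confidence interval -0.33 to 0.49) and -0.07 in TIAR (-0.51 to 0.36). On the brighter probe the intervals were 0.42 to 1.01 in TIA1 and 0.27 to 0.92 in TIAR, and they overlap those of the dimmer probe. Whether the probes differ was not tested, and both target the same RefSeq transcript, NM_057749.

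CDK2 and CDK4 had the line means that differed least among the 10 genes. For CDK4, a partner of D-type cyclins, all 8 values lay between 4.94 and 5.14 (NM_000075, chr12:58142263-58142322, minus strand). For CDK2, the partner of E- and A-type cyclins, values lay between -0.30 and 0.17 (NM_001798, chr12:56365789-56365848, plus strand). Line means differed by at most 0.12 for CDK4 and 0.19 for CDK2, the latter with a GFP SD of 0.28. The 95% confidence intervals of the change in TIA1 compared with HuR were -0.38 to 0.18 for CDK2 and -0.19 to 0.32 for CDK4, and in TIAR compared with HuR -0.21 to 0.28 and -0.14 to 0.39.

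CDK6, the other kinase of D-type cyclins, had lower values in TIAR- than in TIA1-expressing cells (NM_001259, chr7:92234443-92234502, minus strand). Its values were 2.61 and 2.50 in TIA1, 2.32 and 2.41 in HuR, 1.80 and 1.69 in TIAR, and 1.13 and 1.88 in GFP. TIAR lay below both TIA1 and HuR without overlap, whereas the GFP arrays spanned the TIAR values. The log2 fold change was -0.81 in TIAR compared with TIA1 (SE 0.12, adjusted p = 0.048) and -0.62 in TIAR compared with HuR (SE 0.10, adjusted p = 0.020), both under 2-fold. In TIAR compared with TIA1, the adjusted p ranged from 0.018 to 0.288 over the limma settings. Of all probes, 3.48% had an adjusted p under 0.05 in that comparison. The fibroblast markers DCN and LUM were called up there, and their part in the CDK6 difference was not tested. In TIA1 compared with HuR the log2 fold change of CDK6 was 0.20 (SE 0.10, adjusted p = 0.19). Compared with GFP it was 0.85 in HuR (SE 0.32, adjusted p = 0.30) and 0.24 in TIAR (SE 0.33, adjusted p = 0.72). In TIA1 compared with GFP the log2 fold change was 1.05 (SE 0.32, adjusted p = 0.19), and 0.68 without GFP 1 against 1.42 without GFP 2, so this value depends on which GFP array is used. CDK6 was called in this comparison without GFP 2 (adjusted p = 0.011, with 23.6% of all probes called) and with all 8 arrays in 1 fit (adjusted p = 0.037, with 9.05%).

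CDKN1B, the gene of the inhibitor p27, had higher levels in TIA1 than in HuR with both of its probes. The probe with 1 spot, A_23_P204696, is printed whole with a stretch of A_24_P81841, which lies further downstream, since they read different parts of the same mRNA (NM_004064). Capitals mark runs of at least 3 T.
CDKN1B A_23_P204696 (chr12:12871119-12871178, plus strand): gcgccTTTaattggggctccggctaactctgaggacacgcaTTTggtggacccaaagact
CDKN1B A_24_P81841 (chr12:12874964-12874993, plus strand): tggatactacatcTTTaaacagtaTTTcat
On A_23_P204696, values were -0.34 and -0.48 in HuR, 0.07 and 0.03 in GFP, 0.55 and 1.04 in TIA1, and -0.01 and 0.56 in TIAR. HuR was lowest without overlap, TIA1 and TIAR overlapped, and the TIA arrays were more spread than those of HuR. This probe was upregulated in TIA1 compared with HuR by 1.21 on the log2 scale (SE 0.20, adjusted p = 0.013), or 2.31-fold. In TIAR compared with HuR, the log2 fold change was 0.69 (SE 0.22, adjusted p = 0.086).

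On A_24_P81841, with 10 spots, CDKN1B values were 1.38 and 1.35 in HuR, 1.14 and 1.30 in GFP, 2.10 and 2.12 in TIA1, and 1.91 and 2.01 in TIAR. All 4 TIA1 and TIAR arrays lay above the HuR and GFP arrays. The log2 fold changes compared with HuR were 0.74 in TIA1 (SE 0.09, adjusted p = 0.0070) and 0.60 in TIAR (SE 0.10, adjusted p = 0.019), both under 2-fold. Compared with GFP they were 0.88 in TIA1 (SE 0.19, adjusted p = 0.14) and 0.74 in TIAR (SE 0.19, adjusted p = 0.24), and without GFP 1 they were 0.81 and 0.66. The probes differed in the order of HuR and GFP, with a log2 fold change in HuR compared with GFP of -0.46 on A_23_P204696 and 0.14 on A_24_P81841 (adjusted p = 0.29 and 0.64). The call on A_23_P204696 was lost without HuR 1 or HuR 2 (adjusted p = 0.069 and 0.086), and without TIA1 2 its log2 fold change was 0.96. It was also lost without the filter on dim probes (adjusted p = 0.058) and by the methods' paired test.

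CDKN2C, the gene of the CDK4 and CDK6 inhibitor p18, was 3.30 and 3.52 in TIA1, 2.99 and 3.08 in TIAR, 2.85 and 2.85 in HuR, and 1.86 and 3.31 in GFP (NM_078626, chr1:51439963-51440022, plus strand). The GFP arrays differed by more than the range of the other 6 arrays. In TIA1 compared with HuR the log2 fold change was 0.56 (SE 0.12, adjusted p = 0.025), under 2-fold, and in TIAR compared with HuR it was 0.18 (SE 0.10, adjusted p = 0.22). In TIA1 compared with GFP it was 0.83 (95% confidence interval -0.68 to 2.34), and 0.10 without GFP 1. Without GFP 2 it was called up in TIA1 and in TIAR (1.55 and 1.18), in comparisons where 23.6% and 21.3% of all probes were called.

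**Figure D2:**
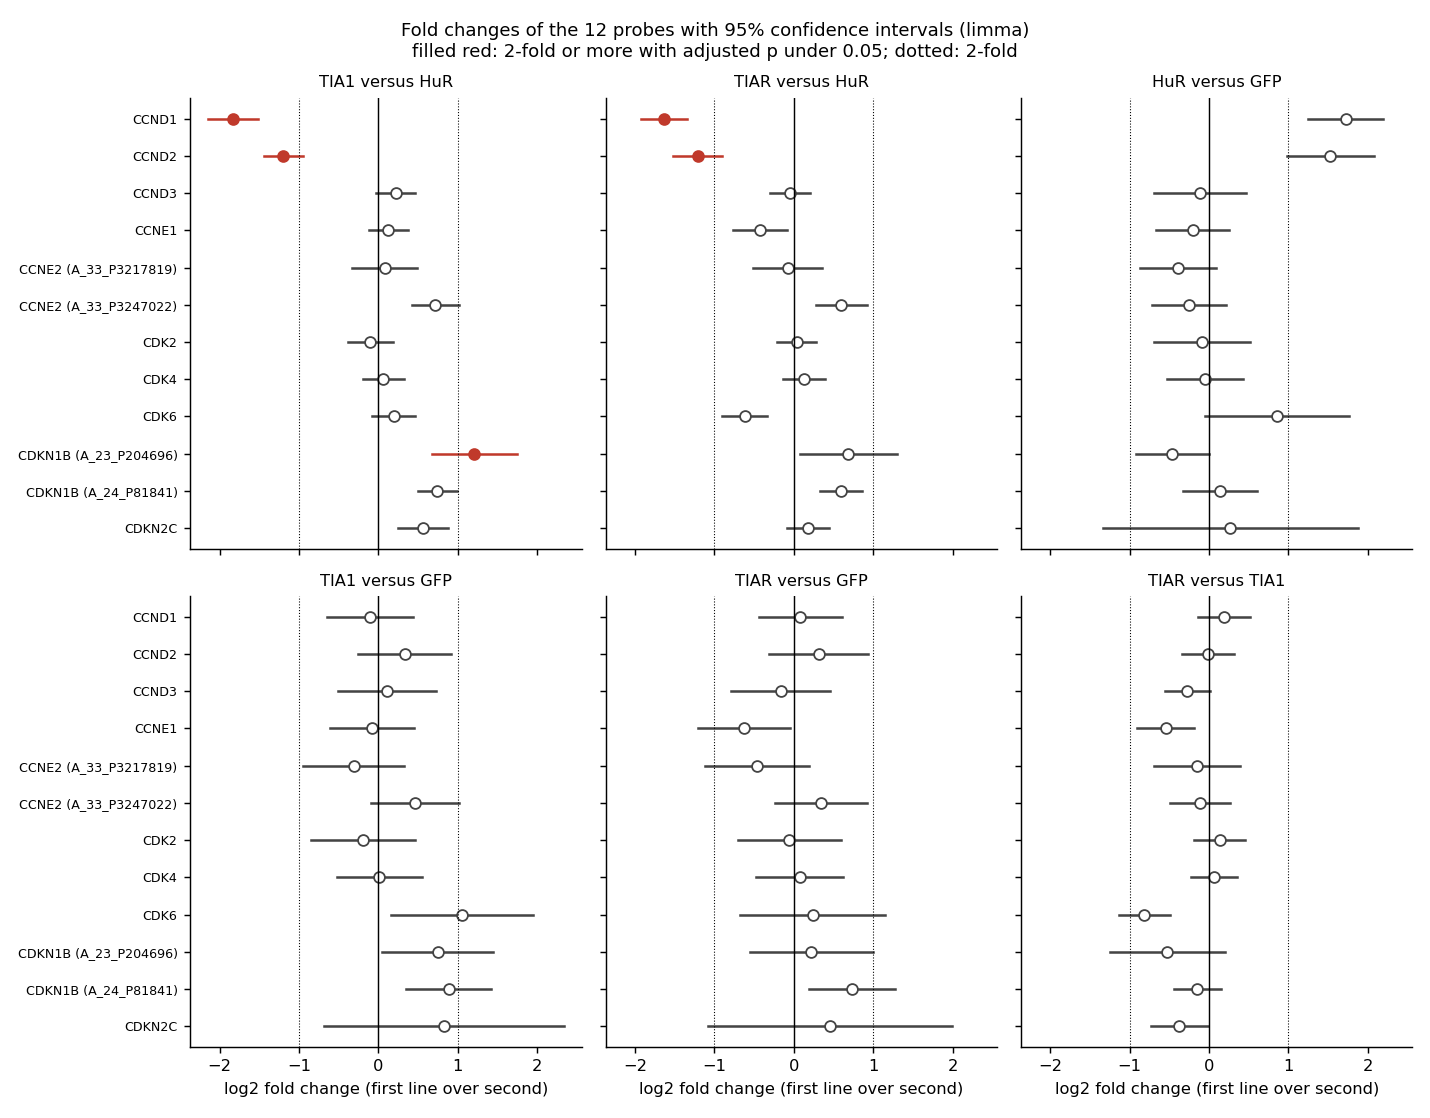
Log2 fold changes of the 12 probes (points) with 95% confidence intervals (bars) in the 6 comparisons between lines, where filled red points passed 2-fold and an adjusted p under 0.05 and dotted lines mark 2-fold. Called are CCND1, CCND2 and CDKN1B A_23_P204696 in TIA1 compared with HuR and CCND1 and CCND2 in TIAR compared with HuR, and intervals are widest in the comparisons with GFP.

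Over the 12 probes, 3 were called in TIA1 compared with HuR, 1 up and 2 down, in a comparison where 13.4% of all 28743 tested probes were called (8.5% up and 4.9% down). In TIAR compared with HuR, 2 were called, both down, against 10.1% of all 29099 probes (7.06% up and 3.01% down). At any fold, 6 and 5 of the 12 had an adjusted p under 0.05, 3 of them in each comparison with a change under 2-fold, against 41.5% and 30.6% of all probes at any fold. The lines did not overlap for 10 and 11 of the 12 probes, but neither did they for 75.7% and 71.6% of all probes. The median absolute log2 fold change was 0.39 over the 12 probes in TIA1 compared with HuR, as over all probes, and 0.51 against 0.34 in TIAR compared with HuR. In TIAR compared with TIA1, 0 of 12 were called by limma and 3 had an unadjusted p under 0.05 (CDK6, CCNE1 and CDKN2C, against 6673 of all probes), where 2.35% of all 28063 probes were called (1.24% up and 1.1% down). The lines did not overlap for 8 of the 12, against 55.9% of all probes. In the comparisons of TIA1, TIAR and HuR with GFP, 0 of 12 were called, and 3, 2 and 3 had an unadjusted p under 0.05. Over all probes, 6078 of 28042, 4686 of 28600 and 4970 of 28871 had an unadjusted p under 0.05 in limma. The background called in these 3 comparisons was 0.0% of the tested probes, and the lines did not overlap for 6, 5 and 8 of the 12 against 57.7%, 53.4% and 57.7% of all probes.

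The precision of single arrays could be read from the probes of CCND1, CDK2 and CDKN1B A_24_P81841, each printed 10 times, of which 8 to 10 spots were used per array. The SD between spots ranged over the arrays from 0.07 to 0.29 for CCND1, from 0.05 to 0.17 for CDK2 and from 0.05 to 0.41 for CDKN1B. For CCND1, the lowest HuR spot (0.62 on HuR 1) was above the highest spot of any other line (-0.58 on GFP 2). For CDKN1B, single spots of TIA1 1 and TIAR 1 reached down to 1.18 and 1.34, into or below the range of the HuR spots, which lay between 1.28 and 1.497. For CDK2, spots of all lines overlapped.

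**Figure D3:**
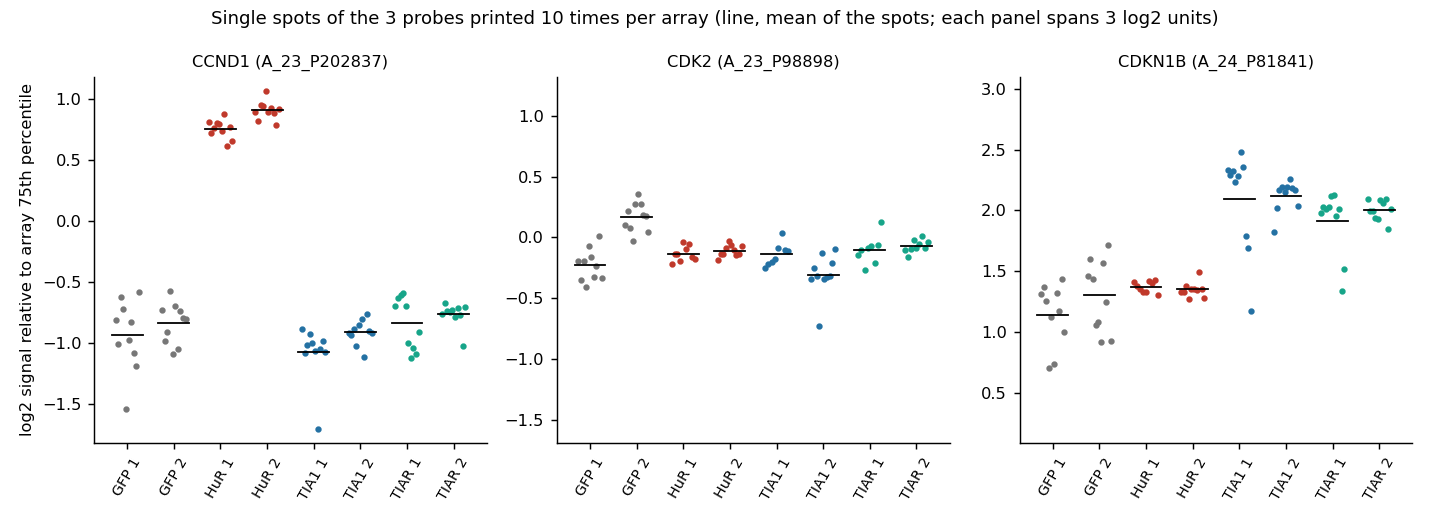
Log2 signal of each spot (dots) of the probes of CCND1, CDK2 and CDKN1B on the 8 arrays, relative to the array's 75th percentile, with a line at the mean of the spots. All HuR spots of CCND1 lie above those of the other lines, while some spots of CDKN1B on TIA1 1 and TIAR 1 reach down to the HuR range.

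Among the genes whose values followed those of CCND1 most closely over the 8 arrays were POLR1E (a subunit of RNA polymerase I, Pearson r = 0.997) and RUFY2 (r = 0.989), out of 11875 probes well above background on all arrays with a range of at least 2-fold. These are given as a description, since 8 arrays of 4 lines share much of their variation. Their means in HuR and GFP were 0.27 and -0.81 for POLR1E and 1.54 and 0.01 for RUFY2. Among the 12 probes, CCND2 was nearest to CCND1 (r = 0.96), and CCNE2 A_33_P3247022 was the most opposed (r = -0.78).

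The other CDK inhibitors on the list, 5 genes, included CDKN1C (p57) and CDKN2D (p19) as the ones called, both up in TIA1 and in TIAR compared with HuR. That was 2 of 5 genes in each comparison, where 13.4% and 10.1% of all probes were called, 8.5% and 7.06% of them up as a share of all probes. In these lists a gene counted as called when any of its probes was. CDKN1C values were -2.60 and -2.49 in HuR, -0.86 and -0.68 in TIA1, -0.98 and -0.85 in TIAR, and -1.11 and -1.19 in GFP. Its log2 fold changes compared with HuR were 1.77 in TIA1 (adjusted p = 0.0026, limma) and 1.63 in TIAR (adjusted p = 0.0048), and HuR was the line that stood apart. For CDKN2D, in contrast, HuR (1.62 and 1.45) and GFP (1.20 and 1.56) lay together below TIA1 (2.64 and 2.71) and TIAR (2.53 and 2.64). Its log2 fold changes compared with HuR were 1.14 in TIA1 (adjusted p = 0.0044) and 1.05 in TIAR (adjusted p = 0.0089). CDKN1A (p21) had values of -2.08 on both TIA1 arrays and -3.18 to -2.72 on the other 6, with a log2 fold change of 0.88 in TIA1 compared with HuR (adjusted p = 0.022), under 2-fold, and 0.23 in TIAR compared with HuR (adjusted p = 0.37). CDKN2B was 1.94 on GFP 1 and -3.71 on GFP 2, and -3.37 to -2.39 elsewhere. Compared with GFP, none of the 5 genes was called with both GFP arrays in TIA1, TIAR or HuR. Without GFP 1, log2 fold changes in TIA1 compared with GFP included 1.12 for CDKN2D and 1.30 for CDKN2B. That of CDKN1C in HuR compared with GFP was then -1.35. Leaving out HuR 1 or HuR 2 ended both calls in TIAR compared with HuR, leaving out TIAR 2 ended 1 of them, and in TIA1 compared with HuR leaving out HuR 2 added CDKN1A. Fewer probes of the whole array were called in both comparisons without HuR 1 or HuR 2. The median log2 fold change of the list's 6 probes was 0.89 in TIA1 and 0.41 in TIAR compared with HuR, against 0.08 and 0.05 over all probes.

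Of 15 genes that activate G1 cyclin-CDK complexes or take part in their turnover, FBXO4, an F-box protein that has been linked to cyclin D1 degradation, was the 1 called, with a log2 fold change of -1.39 in TIA1 compared with HuR (adjusted p = 0.0038, limma). Its values were -1.10 ± 0.14 in TIA1, -0.67 ± 0.13 in TIAR, 0.30 ± 0.09 in HuR and 0.05 ± 0.03 in GFP (SD, n = 2). SKP2, which targets p27 for degradation, had log2 fold changes of -0.55 in TIA1 (adjusted p = 0.034) and -0.81 in TIAR (adjusted p = 0.013), under 2-fold. None of the 15 genes was called in TIAR compared with HuR, where 10.1% of all probes were called. There, 6 of the list's 18 probes had an unadjusted p under 0.05 in limma, against 13219 of 29099 of all probes. The median of the 18 probes was -0.17 in TIA1 and -0.26 in TIAR, against 0.08 and 0.05 over all probes.

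Among 10 genes of RB and E2F proteins, E2F1, E2F2 and RBL1 (p107) were upregulated and E2F5 was downregulated in both comparisons with HuR. These were 3 genes up and 1 down in each. Of all probes, 8.5% and 7.06% were called up and 4.9% and 3.01% down. The median log2 fold change of the list's 13 probes was 0.45 in TIA1 and 0.15 in TIAR, against 0.08 and 0.05 over all probes. E2F5, an E2F that works mainly in repression, had values of 0.65 and 0.75 in HuR, 0.00 and 0.21 in GFP, -1.75 and -1.86 in TIA1, and -1.84 and -1.90 in TIAR. Its log2 fold changes were -2.50 in TIA1 and -2.57 in TIAR (adjusted p = 0.0018 and 0.0036, limma). E2F1, an activator of S phase genes, was 1.65 and 1.66 in HuR, 2.09 and 2.27 in GFP, 2.82 and 2.88 in TIA1, and 3.11 and 3.13 in TIAR. Its log2 fold changes were 1.20 and 1.47 (adjusted p = 0.0032 and 0.0045). E2F2 had log2 fold changes of 1.18 and 1.10 (adjusted p = 0.0047 and 0.0093), and RBL1 of 1.14 and 1.30 with its brighter probe (adjusted p = 0.023 and 0.0068). The GFP values of E2F1 and E2F5 lay between those of HuR and the TIA lines. Leaving out HuR 1 or HuR 2, 1 gene of this list, E2F5, was called in TIAR compared with HuR, and 3 genes were called in TIA1 compared with HuR. Without GFP 1, E2F2, RBL1 and E2F5 were called in TIA1 and TIAR compared with GFP, where 11.5% and 6.58% of all probes were called. The log2 fold changes of E2F5 were -2.02 and -2.08. For RBL1 the probe called there was A_24_P276102 (1.62 in TIA1 and 2.41 in TIAR), not the brighter probe given above.

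Of 20 E2F targets of S phase entry, CDC6 (a loader of the replicative helicase), PCNA (the sliding clamp of DNA polymerase) and TK1 (thymidine kinase) were upregulated in both comparisons with HuR. CDT1 (a licensing factor) was called in TIAR compared with HuR. These were 3 and 4 of 20 genes, and none of the list was called down in these comparisons. Of all probes, 13.4% and 10.1% were called in either direction, and 8.5% and 7.06% were called up. Compared with GFP none of the list was called, while without GFP 1 POLA1, a subunit of DNA polymerase alpha, was called down in TIA1 (log2 fold change -1.27, adjusted p = 0.035), and no gene of the list in TIAR. CDC6 values were -3.14 and -3.04 in HuR, -2.60 and -2.29 in GFP, -1.76 and -1.69 in TIA1, and -1.79 and -1.70 in TIAR, with log2 fold changes compared with HuR of 1.37 in TIA1 and 1.35 in TIAR (adjusted p = 0.0029 and 0.0054, limma). TK1 had log2 fold changes of 1.33 and 1.17 (adjusted p = 0.0028 and 0.0072), and PCNA, on A_23_P28886, of 1.12 and 1.04 (adjusted p = 0.0064 and 0.011). CCNA2, the cyclin of S phase, was -0.20 and -0.13 (adjusted p = 0.16 and 0.33). The median log2 fold change of the list's 26 probes was 0.45 in TIA1 and 0.28 in TIAR compared with HuR, against 0.08 and 0.05 over all probes. Leaving out HuR 1 or HuR 2, CDC6 and TK1 were called in TIA1 compared with HuR and no gene of this list in TIAR compared with HuR. Calls over the whole array were also fewer in both comparisons when HuR 1 or HuR 2 was left out. The comparisons of both TIA lines use the same HuR arrays.

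**Figure D4:**
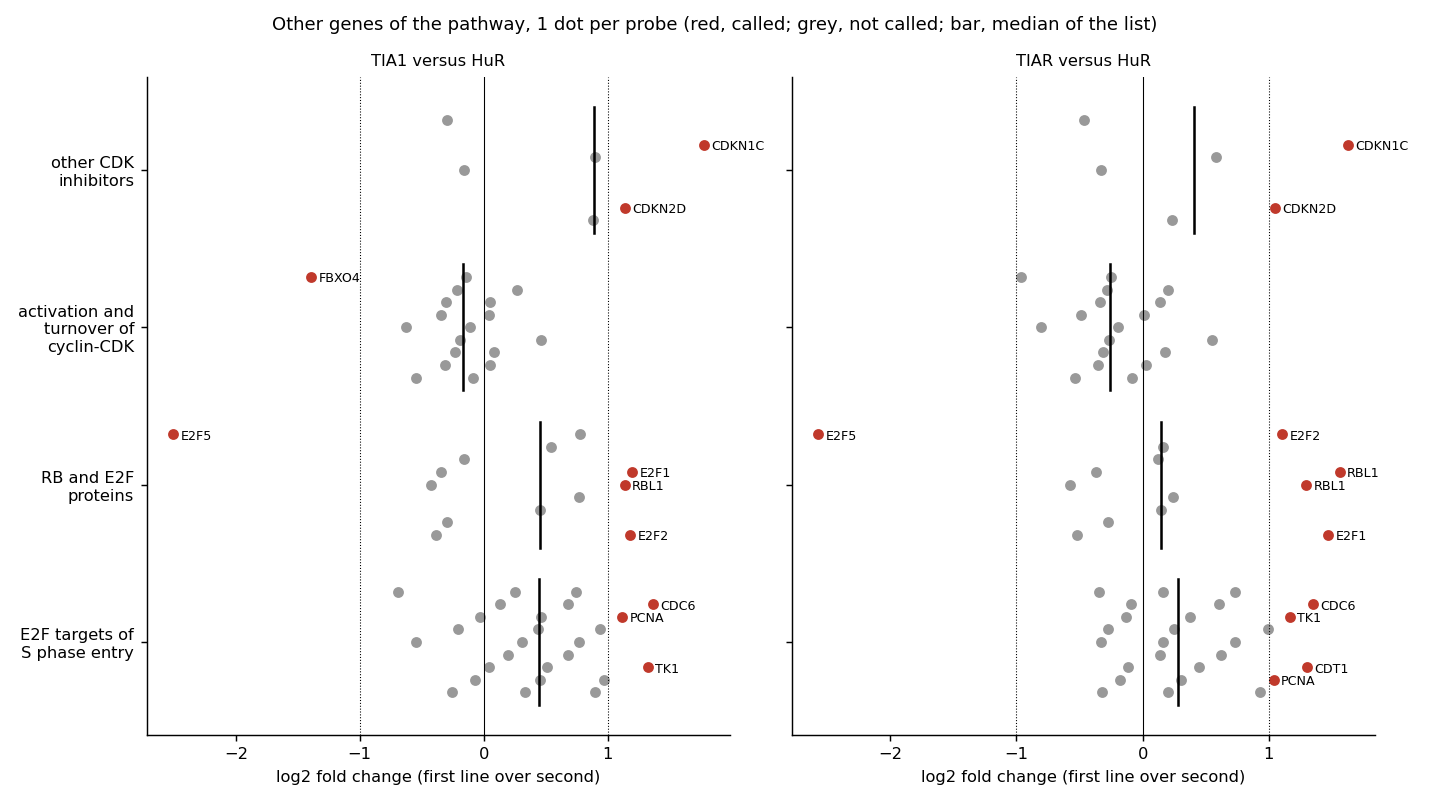
Log2 fold changes of the probes of other CDK inhibitors, of genes for activation and turnover of cyclin-CDK complexes, of RB and E2F proteins and of E2F targets in TIA1 and TIAR compared with HuR, with 1 dot per tested probe, red where called, a bar at each list's median and dotted lines at 2-fold. E2F5 falls farthest left in both panels, while CDKN1C, E2F1, TK1 and CDC6 lie right of the 2-fold line.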

How the data were processed

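RNA of the 4 FT293 lines was measured on 8 arrays of 1 slide, 2 per line. The authors deposited the output of Agilent Feature Extraction 10.7.3.1, whose processed signal is an intensity that the software has corrected for background and spatial trend. Their table of the series was used as an alternative and holds log2 values, deposited after quantile normalization, with the TIAR arrays scaled apart (column medians 7.08 against 7.23 to 7.24). Here, processed signals were put on a log2 scale relative to the 75th percentile of each array, without outlier spots, and replicate spots were averaged.

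A comparison used the 4 arrays of its lines and tested each probe that exceeded background well on both arrays of either line, with limma 3.58.1 in R 4.3.3. Calls needed a 2-fold change and a Benjamini-Hochberg adjusted p under 0.05. Probes of a gene were kept apart. The fit was tested on simulated data. Plots used matplotlib 3.10.9 and tables pandas 2.3.3. Positions and sequences of probes come from the array design (hg19), and with no hg19 annotation used here they were not assigned to coding or untranslated sequence. The number of arrays limits the precision.

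The members, the lists of other pathway genes and of cell type markers, and the tests were chosen with earlier results of these data known. Named are all members, called genes of the lists, CDKN1A, CDKN2B, SKP2 and CCNA2 (chosen after their values were seen), and genes among the 3 most like CCND1. A few named this way are not reported here. The alternatives changed the background correction (normexp, offset 50), the scaling (quantile, alone or after normexp), the values (those of the authors), the filter (none, or all 4 arrays), the fit (all 8 arrays, with array weights, or with a replicate block), the test (the paired test of the methods) and the arrays (each left out in turn).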

Additional observations from a re-analysis of the deposited data

Results flagged for a closer look

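CDK6 differed between TIAR- and TIA1-expressing cells by the direct test of the difference, with a log2 fold change of -0.81 (adjusted p = 0.048, limma) and both TIAR arrays below both TIA1 arrays. It was under the 2-fold threshold and was not called. In this comparison 3.48% of all probes had an adjusted p under 0.05. Leaving out each TIA1 or TIAR array in turn gave log2 fold changes from -0.87 to -0.75 with adjusted p between 0.147 and 0.180, and over these and the other limma settings the adjusted p ranged from 0.018 to 0.288. The fibroblast markers DCN and LUM were called up in the same comparison, and their part in it was not tested.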

How the results depend on the processing

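The number of member probes called in TIA1 compared with HuR was 3, and 2 to 3 when each array was left out in turn, with no filter on dim probes and with the unadjusted paired test 2, CDKN1B A_23_P204696 being lost. In TIAR compared with HuR it was 2, and 0 to 2 when arrays were left out, 1 with the authors' values (TIAR arrays scaled apart), with normexp and quantile normalization together and with the methods' paired test unadjusted, CCND2 being lost in each of these 3. The paired test after Benjamini-Hochberg adjustment called 0 in both comparisons, as for all probes of the array. In HuR compared with GFP, where none was called, all 8 arrays in 1 fit called 2 (CCND1 and CCND2), the unadjusted paired test 1, and leaving out arrays 0 to 3. In TIA1 compared with GFP, all 8 arrays in 1 fit called 1 (CDK6), and leaving out arrays 0 to 2. In TIAR compared with GFP, leaving out arrays called 0 to 1, and in TIAR compared with TIA1 0 under each setting. Where a line kept 1 array, it was assumed to vary like the other line. With a HuR array left out, fewer probes of the whole array were called in TIA1 and in TIAR compared with HuR. The cause of these changes was not tested. No called value changed sign. Over all member probes, comparisons and alternatives, 1052 values stayed on their side of the threshold, 16 lost a call and 12 gained 1. Most of the 1052 were not called to begin with. CCND2 in TIAR and CDKN1B A_23_P204696 in TIA1, each compared with HuR, kept the call under 9 alternatives and lost it under 6.

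With the replicate block, 3 and 2 member probes were called in TIA1 and TIAR compared with HuR and 0 in the other comparisons, as without it. Arrays of the same number deviated together with correlations from -0.09 to 0.18, so the numbers were not taken to pair them. Quantile normalization moved the median log2 fold change over all probes in HuR compared with GFP from -0.04 to 0.23, in TIA1 compared with GFP from 0.01 to 0.24 and in TIAR compared with GFP from -0.02 to 0.21, so small differences from GFP depend on the scaling.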
